A study of Homo sapiens with 36 samples.

Results

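HepG2 cells, a human line grown from a liver tumour, were compared at 24 h and at 12 h of exposure to 10 mM acetaminophen (APAP). The comparison rests on the 3 arrays labelled 24 h and the 3 labelled 12 h at that dose, chosen by their titles, which are 6 of the 36 arrays of the series. The other arrays used here hold cells kept in 0.5 mM APAP or in the solvent, 0.5% DMSO, for the same times. They also hold cells kept in 10 mM APAP, 0.5 mM APAP or DMSO for 48 and 72 h. Each group has 3 arrays. All cultures were given fresh medium with compound or solvent when nearly confluent, and the labels do not make clear whether the APAP medium also held DMSO. The arrays are described as biological replicates, with no word on whether each came from its own culture. The extraction text names 24 h for every sample, so the 12 h label rests on titles and time fields.

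Acetaminophen is an analgesic that injures the liver in overdose. In hepatocytes most of a dose is conjugated with glucuronic acid or sulfate, and a part is oxidised by cytochrome P450 enzymes to a reactive quinone imine that glutathione traps until it runs short. HepG2 cells are known for low levels of many of these oxidising enzymes, so they model the response of a liver tumour line to the drug rather than that of a liver. The change over the first day of exposure shows how the early response to the high dose moved on, against the change that culture time brings in solvent.

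Each array gave a log2 expression level for 18919 genes, on which array medians lay between 3.32 and 3.46 and levels between 0.61 and 15.29. The rows carry Ensembl gene identifiers that the sources used here pair with no gene name (0 of 18919 matched). The changes are therefore given as numbers of genes and, for 2 rises and 2 falls, by identifier, and the liver origin of the cells was not checked against marker genes.

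Correlations across genes were 0.9950 to 0.9975 among the 24 h arrays, 0.9966 to 0.9972 among the 12 h arrays and 0.9900 to 0.9941 between the times, so any 2 arrays of one time were more alike than any 2 of different times. Replicate 2 at 24 h stood farthest from its mates, with a median correlation of 0.9956 to them, where replicates 1 and 3 had 0.9968 and 0.9962. The dap spike-in rows, RNA added before labelling, were weak on 24 h replicate 2 (mean log2 level 6.44) and on 12 h replicate 1 (5.92), and between 11.66 and 13.10 on the other 4 arrays. Results are given below also without these arrays; the part of the spike-ins in them was not tested. For the GAPDH control rows, the 3' level minus the 5' level, which grows as RNA degrades, was 0.06, 0.26 and 0.04 at 24 h and -0.02, 0.06 and 0.10 at 12 h, highest on 24 h replicate 2. The same difference for the actin control rows was 1.97, 1.98 and 2.17 at 24 h and 2.16, 2.04 and 2.19 at 12 h. By actin, 24 h replicate 2 was not raised.

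Between 12 and 24 h at 10 mM APAP, 1009 genes rose and 1048 fell (limma, Benjamini-Hochberg adjusted p under 0.05, n = 3 arrays per time). These were 5.33% and 5.54% of the genes, 10.9% together. Most of the changes were small: the median was 0.57 on the log2 scale among genes that rose and -0.52 among those that fell, and the smallest called change was 0.21 upward and 0.20 downward. A change of at least 2-fold was reached by 113 of the genes that rose and 79 of those that fell, and one of at least 4-fold by 6 and 8. The median standard error of a change was 0.12. In 976 of the genes that rose (96.7%) the 3 arrays at 24 h lay above the 3 at 12 h, and in 1027 of those that fell (98%) they lay below. Over all genes such a separation was seen upward in 12.9% and downward in 15.5%, 28.4% together. The same 6 arrays chose the called genes, so their higher shares are largely built in and are no further test of the changes.

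The count of changed genes depended on single arrays. Without 24 h replicate 2, 692 genes rose and 696 fell. With and without that array 1297 genes were called in one direction, and 0 in opposite directions. Both fits share all other arrays, so opposite calls were unlikely from the start. The number that fell was 674 without 12 h replicate 3. Without both arrays with weak spike-ins and the 4 others of the series that had them, 618 rose and 690 fell. Which direction was the more frequent depended on scaling, with 1136 up and 957 down after a second quantile normalization.

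The direction of change was read in arrays that had not chosen the genes. When both arrays numbered 1 were left out, 604 genes rose and 589 fell, and 97.2% of the first and 98.1% of the second had the same direction between the 2 arrays left out. With the arrays numbered 2 left out, the shares were 98.5% of 536 and 96.7% of 451, and with those numbered 3, 92.6% of 678 and 92.1% of 605. Over all genes, between 46.4% and 48.4% were above 0 in the same 3 differences. The left-out differences were smaller than the fitted ones that had chosen the genes, with medians of 0.60, 0.65 and 0.51 against 0.69, 0.70 and 0.70 for genes that rose. It is not known whether the arrays of one time came from separate cultures, so these shares cannot speak for new cultures.

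**Figure D1:**
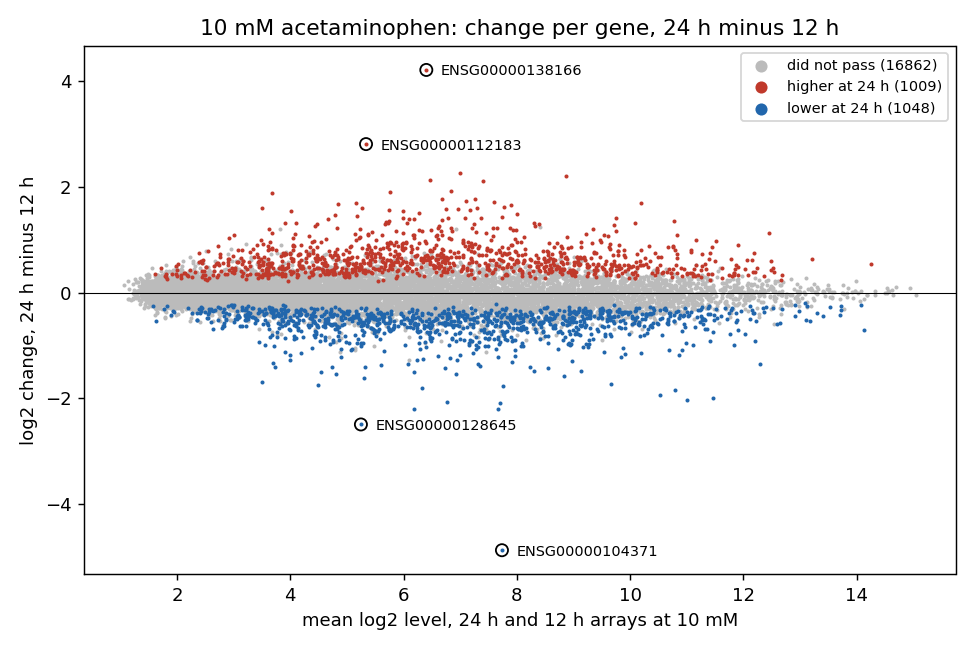
Each point is a gene, with its mean log2 level over the 6 arrays at 10 mM on the horizontal axis and its log2 change, 24 h minus 12 h, on the vertical axis. Red points passed the test upward (1009), blue points downward (1048) and grey points did not pass; the 4 circled genes are those given by identifier, and the changes of 4.21 and -4.88 stand clear of all others.

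Changes were found across the range of levels but seldom among the dimmest genes. Of the 10718 genes with a mean level under log2 4 over all 36 arrays, 1.63% rose and 1.56% fell. Between log2 4 and 6 the shares were 8.8% and 8.18%, between 6 and 8 they were 10.5% and 11.2%, and between 8 and 10 they were 11.5% and 12.7%. Among the 1089 genes at log2 10 and over, 11.1% rose and 13.8% fell. In 512 of the genes that rose and 612 of those that fell, the means at both times were at least log2 6. In 1 gene the mean was at least log2 6 at 24 h and under 4 at 12 h, and in 1 the reverse held; these are the second rise and the second fall described next.

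**Figure D2:**
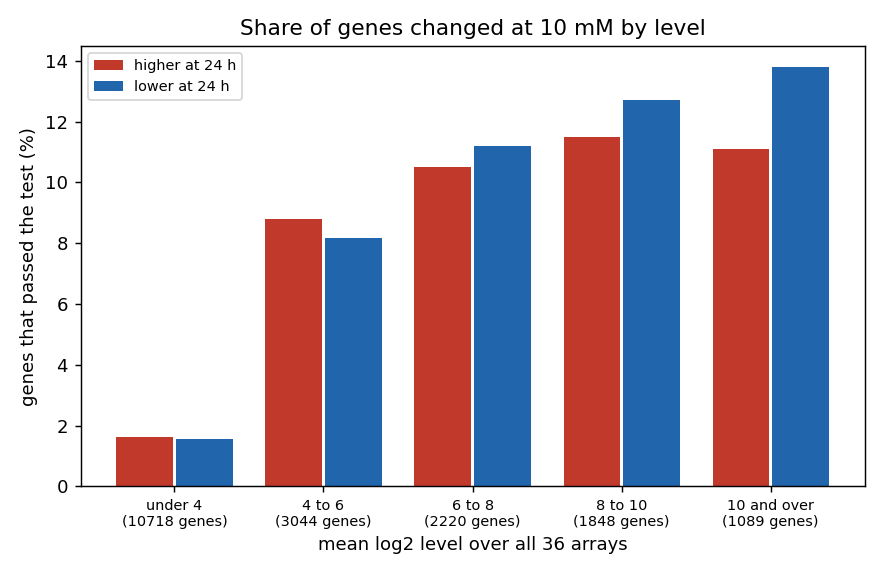
Bars give the percentage of genes that rose (red) and that fell (blue) between 12 and 24 h at 10 mM APAP, by the mean log2 level over all 36 arrays. The shares are 1.63% and 1.56% under log2 4, and 11.1% and 13.8% at log2 10 and over.

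The largest fall was that of ENSG00000104371. Its log2 level was 5.20, 5.27 and 5.43 at 24 h, against 10.43, 10.29 and 9.81 at 12 h. The groups were far apart, with 4.38 between the highest 24 h array and the lowest 12 h array. The change was -4.88 ± 0.20 (SE; limma adjusted p = 9.4e-17), a 29.4-fold fall, and it ranged from -5.06 to -4.75 when arrays were left out in turn. In solvent this gene stayed near the array medians, at 3.30 ± 0.11 at 24 h and 3.43 ± 0.17 at 12 h (SD, n = 3), and its change of -0.13 did not pass the test (adjusted p = 0.88). The change at 10 mM minus that in DMSO was -4.75 ± 0.28 (adjusted p = 2.4e-12). At 12 h the level at 10 mM was 6.75 ± 0.20 above that in DMSO, and at 24 h it was 2.00 ± 0.20 above; as the DMSO levels lie near the array medians, neither difference is given as a fold. Later levels at 10 mM were 3.75 ± 0.49 (48 h) and 4.97 ± 0.34 (72 h), and the rise between these of 1.22 ± 0.20 passed the test (adjusted p = 0.0015). In DMSO the levels were then 2.72 ± 0.21 and 2.73 ± 0.10. The 10 mM level stood above them by 1.03 ± 0.20 at 48 h and 2.24 ± 0.20 at 72 h. Both differences passed (limma adjusted p = 0.00011 and 1.4e-10).

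The largest rise was that of ENSG00000138166. Its level was 8.76, 9.59 and 7.18 at 24 h, against 4.10, 4.63 and 4.16 at 12 h. The 24 h arrays spread widely (SD 1.23), yet the lowest of them lay 2.54 above the highest 12 h array. The change was 4.21 ± 0.37 (adjusted p = 9.6e-09), an 18.5-fold rise, and it was 3.67 without 24 h replicate 2, the highest array, and 4.88 without replicate 3, the lowest. In DMSO the level was 4.22 ± 0.16 at 24 h and 3.41 ± 0.07 at 12 h, a change of 0.80 ± 0.37 that did not pass (adjusted p = 0.3). The rise at 10 mM exceeded it by 3.41 ± 0.52 (adjusted p = 6e-04). The difference from DMSO was 0.88 at 12 h, which did not pass (adjusted p = 0.08), and 4.29 at 24 h. It was 3.39 at 48 h and 2.63 at 72 h, both past the threshold. At 0.5 mM no such rise was seen, with levels of 3.94 ± 0.40 at 24 h and 3.30 ± 0.22 at 12 h (adjusted p = 0.45).

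ENSG00000112183 had the second largest rise, with levels of 6.83, 7.26 and 6.14 at 24 h, against 3.49, 4.21 and 4.10 at 12 h. The 24 h arrays lay above the 12 h arrays by at least 1.93. Its change was 2.81 ± 0.24 (adjusted p = 8.3e-09), a 7.01-fold rise. This gene rose in solvent too, to 4.98 ± 0.24 at 24 h against 3.31 ± 0.13 at 12 h, by 1.68 ± 0.24 (adjusted p = 9.3e-05). The rise at 10 mM was larger by 1.13 ± 0.34, which did not pass the test (adjusted p = 0.08). Its call depended on the arrays and the fit. The difference was 1.44 (adjusted p = 0.016) without 24 h replicate 3, 0.87 (0.25) without 24 h replicate 2 and 0.52 (0.62) without the arrays with weak spike-ins. With a replicate block within each time the adjusted p was 0.027, and over the alternatives that recomputed it, it ranged from 0.016 to 0.62. At 0.5 mM the change was 0.49 ± 0.24 (adjusted p = 0.34), and the 10 mM change exceeded that by 2.32 ± 0.34 (adjusted p = 0.00024). At 48 h the level was 5.84 to 6.17 at 10 mM, against 6.73 to 7.15 in DMSO, and at 72 h it was 6.09 to 6.55 at 10 mM, against 7.10 to 7.89 in DMSO. The level at 10 mM minus that in DMSO was 1.76 ± 0.24 at 24 h, -1.04 ± 0.24 at 48 h and -1.16 ± 0.24 at 72 h, each past the threshold, so the gene stood above solvent at 24 h and below it later.

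ENSG00000128645 had the second largest fall, with levels of 3.96, 3.76 and 4.28 at 24 h, against 6.05, 6.33 and 7.10 at 12 h. The groups were 1.78 apart. Its change was -2.50 ± 0.30 (adjusted p = 2e-06), a 5.65-fold fall. In solvent the level was 6.68 ± 0.49 at 24 h and 6.22 ± 0.56 at 12 h, a change of 0.46 ± 0.30 (adjusted p = 0.57). The low dose gave 6.44 ± 0.56 at 24 h and 5.49 ± 0.22 at 12 h, a change of 0.95 ± 0.30 (adjusted p = 0.081). The change at 10 mM minus that in DMSO was -2.95 ± 0.43 (adjusted p = 0.00038), and minus that at 0.5 mM it was -3.45 ± 0.43 (adjusted p = 3.4e-05). At 12 h the level at 10 mM differed from DMSO by 0.27 ± 0.30, which did not pass (adjusted p = 0.6), and at 24 h the difference was -2.68 ± 0.30 (adjusted p = 3.2e-08). Levels near the array medians come without a detection call, so the low ends of these 4 changes and of the differences from DMSO at such levels, and with them their sizes, are uncertain. All 4 genes were chosen by their change at 10 mM, so its excess over the changes in the other cultures is in part built in.

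**Figure D3:**
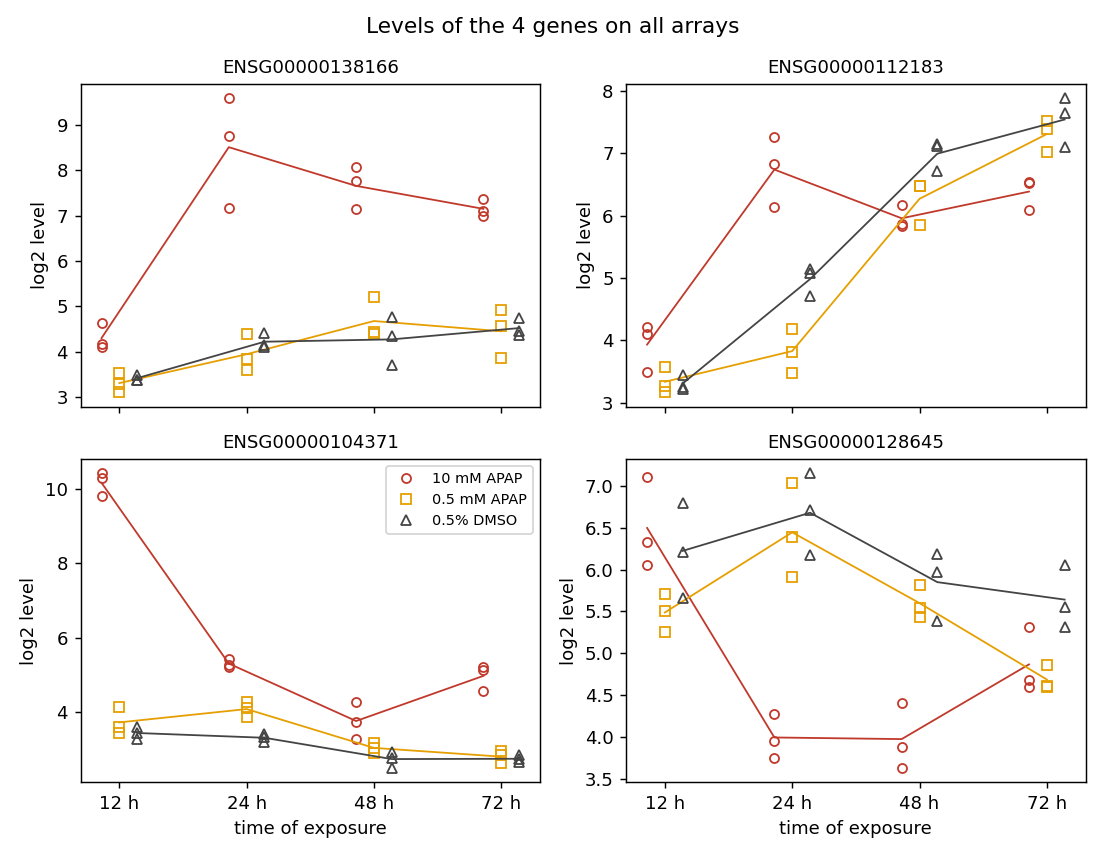
Log2 levels of the 4 genes on every array at 12, 24, 48 and 72 h, for 10 mM APAP (red circles), 0.5 mM APAP (orange squares) and 0.5% DMSO (black triangles); lines join group means of 3 arrays, and the times are evenly spaced on the axis. ENSG00000104371 at 10 mM stands at 9.81 to 10.43 at 12 h and 5.20 to 5.43 at 24 h, while ENSG00000138166 at 10 mM stands at 4.10 to 4.63 at 12 h and 7.18 to 9.59 at 24 h.

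The other cultures changed less over the same 12 h. At 0.5 mM APAP 248 genes rose and 407 fell (3.46% of genes), and in DMSO 361 rose and 380 fell (3.92%), against the 10.9% at 10 mM. The spread of the log2 changes over genes was 0.29 at 10 mM, 0.22 at 0.5 mM and 0.23 in DMSO (SD over 18919 genes), and among the 5157 genes with a mean level of at least log2 6 it was 0.40, 0.29 and 0.31. Over all genes the median spread among the 3 arrays of a group was near equal. It was 0.12 and 0.11 at 24 and 12 h for 10 mM, 0.13 and 0.11 for 0.5 mM and 0.12 and 0.11 for DMSO. Among genes of at least log2 6 it was highest at 10 mM at both times. There it was 0.15 and 0.13 for 10 mM, 0.13 and 0.10 for 0.5 mM and 0.12 and 0.11 for DMSO. The part of this spread in the counts was not tested. After a second quantile normalization 331 rose and 314 fell at 0.5 mM. The total at 0.5 mM was 219 without its 24 h replicate 1, and 354, 329 and 330 without its 12 h replicates 1, 2 and 3. That in DMSO was 357 and 463 without its 24 h replicates 1 and 3, and 426 and 330 without its 12 h replicates 1 and 2.

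Some genes changed the same way at 10 mM and in the other cultures. The groups share no array, but each gene's spread was estimated from all 36 arrays together, so a gene with a small spread passes more readily in every comparison. Of the 1009 genes that rose at 10 mM, 149 (14.8%) also rose in DMSO and 8 fell there, where 1.91% of all genes rose. Of the 1048 that fell, 129 (12.3%) also fell in DMSO and 7 rose, where 2.01% of all genes fell. These overlaps depended on single arrays, with 86 to 154 genes that rose in both and 56 to 118 that fell in both when arrays were left out in turn. The number that rose in both was 95, 91 and 86 without DMSO 24 h replicate 1 and DMSO 12 h replicates 1 and 2. For genes that fell in both, leaving out the same 3 arrays gave 59, 85 and 56, DMSO 24 h replicate 3 gave 84, and at 10 mM 24 h replicate 2 gave 85 and 12 h replicate 3 gave 82. Without the arrays with weak spike-ins 81 rose in both and 52 fell in both. The numbers called in opposite directions were 1 to 10 and 2 to 7 when arrays were left out in turn, too few to compare. The level of the genes bears on this comparison, as dim genes seldom passed any test. Among genes of at least log2 6, of which 11% rose and 12.3% fell at 10 mM, 18% of the 566 that rose also rose in DMSO, where 4.36% of all genes at that level did, and 13% of the 632 that fell also fell there, where 4.25% did. The genes that rose or fell were chosen by their change at 10 mM, so smaller changes in the other cultures are in part built in. In DMSO the median change was 0.14 for the genes that rose at 10 mM and -0.15 for those that fell. At 0.5 mM the medians were 0.11 and -0.17, with 112 of the first also rising and 126 of the second also falling, where 1.31% of all genes rose and 2.15% fell. Across all genes the change at 10 mM had a correlation of 0.38 with that in DMSO and 0.35 with that at 0.5 mM; genes are not independent replicates, and the correlations come with no test.

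Whether the change at 10 mM differed from that in solvent was tested directly. It was more positive than in DMSO in 236 genes (1.25%) and more negative in 204 (1.08%), which is 2.33% of the genes, with 61 and 54 of these differing by at least 2-fold (limma, difference of the changes, adjusted p under 0.05). Of the 236 genes, 178 rose at 10 mM and 48 fell in DMSO, and their median changes were 0.59 at 10 mM and -0.20 in DMSO. Of the 204 genes, 155 fell at 10 mM and 41 rose in DMSO, with medians of -0.57 and 0.17. The 178 and 155 were 17.6% of the genes that rose at 10 mM and 14.8% of those that fell. Of those that rose 3, and of those that fell 0, passed the test for having gone less far. The 10 mM change that chose these genes also enters the difference, so the excess that went further is in part built in. The 178 became 113 without replicate 1 at 10 mM and 24 h, and 112 and 110 without DMSO 24 h replicates 1 and 3. The 155 became 99 without replicate 2 at 10 mM and 12 h, 92 without DMSO 24 h replicate 3 and 96 without DMSO 12 h replicate 1. Without the arrays with weak spike-ins they were 108 and 117, and with array weights 428 and 409. For the remaining 828 and 893 genes the test of the difference did not pass, which does not show that the changes were equal: the median standard error of a difference was 0.17. Of the 113 genes that rose at least 2-fold, 38 (33.6%) rose further than in DMSO, and of the 79 that fell at least 2-fold, 35 (44.3%) fell further. The arrays that chose these genes also enter the difference, so these shares are not read against those of the smaller changes.

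The number of genes that differed from solvent, 440 in all, depended on the fit and on single arrays. With a replicate block within each time it was 750 (386 more positive, 364 more negative). It dropped to 280 when replicate 1 at 10 mM and 24 h was left out. In DMSO, leaving out replicate 1 or 3 at 24 h gave 281 or 260, and leaving out replicate 1 or 2 at 12 h gave 276 or 292. The number with a more negative change was 128 when replicate 2 at 10 mM and 12 h was left out.

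Against the low dose, 331 genes (1.75%) had a more positive change at 10 mM and 158 (0.835%) a more negative one (2.58% of genes together). Of the first, 241 rose at 10 mM and 66 fell at 0.5 mM, and of the second, 127 fell at 10 mM and 24 rose at 0.5 mM. This total of 489 dropped to 319 when replicate 2 at 10 mM and 12 h was left out. At 0.5 mM, leaving out replicate 1 at 24 h gave 260, and leaving out replicate 1 or 2 at 12 h gave 310 or 297. The tests against DMSO and against the low dose share the 10 mM arrays, so their overlap is not given.

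**Figure D4:**
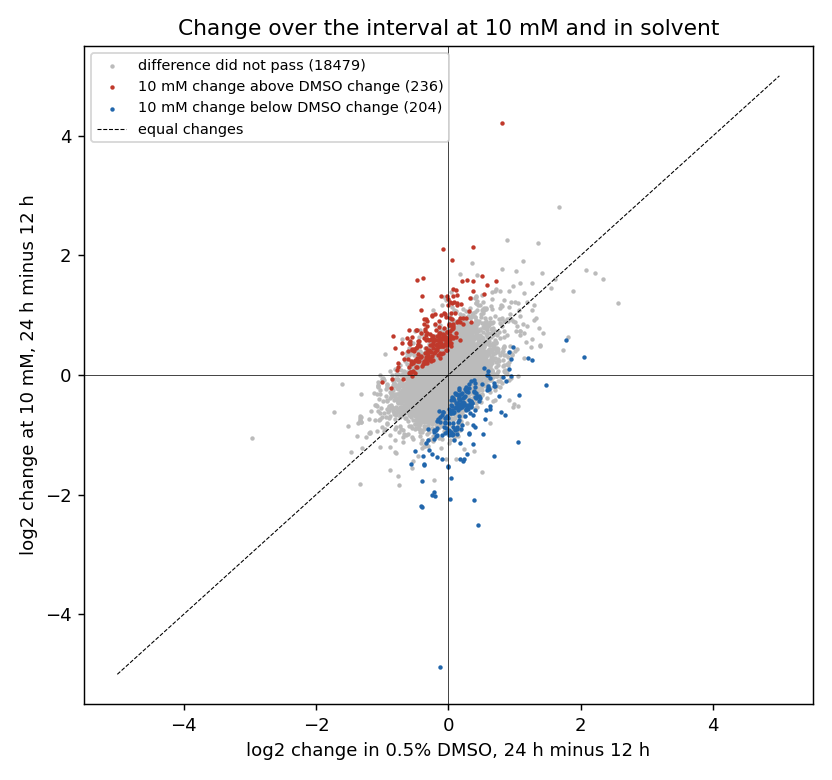
Each point is a gene, with its log2 change from 12 to 24 h in 0.5% DMSO on the horizontal axis and at 10 mM APAP on the vertical axis; the dashed line marks equal changes. Red and blue points are the 236 and 204 genes whose 10 mM change was above or below the DMSO change by the test of the difference, and most of the other points lie in a cloud that leans along the line.

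The distance from solvent at each time was set beside these changes. It shares the 10 mM arrays with the comparison of times, so a gene that rose between them tends to stand lower at 12 h or higher at 24 h by that construction, and no test is drawn from it. Over all genes 29% differed from DMSO at 24 h and 26.6% at 12 h. Genes that rose had a median difference from DMSO of 0.35 at 24 h and -0.04 at 12 h, and the 113 that rose at least 2-fold had 0.95 and 0.03. Genes that fell had medians of -0.18 at 24 h and 0.14 at 12 h, and the 79 that fell at least 2-fold had -1.17 and -0.06. The quartiles at 12 h were -0.57 and 0.64 for the larger rises, and -0.73 and 0.74 for the larger falls. At 12 h the larger movers lay on both sides of solvent, as all genes did, with quartiles of -0.15 and 0.17. Among genes of at least log2 6 the quartiles were -0.38 and 0.32. Of the 4 genes above, ENSG00000104371 was above solvent at 12 h and nearer to it at 24 h, while the others did not pass the test against DMSO at 12 h and passed it at 24 h.

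The later arrays show where these genes stood afterwards. They do not enter the mean levels at 24 and 12 h, but they do enter the shared estimate of each gene's spread; with the 6 compared arrays alone 1836 genes changed. At 48 h, 398 of the 1009 genes that had risen (39.4%) were above DMSO and 244 (24.2%) below it, where 16.3% of all genes were above and 14.9% below (31.2% together). Of the 1048 that had fallen, 337 (32.2%) were below DMSO and 271 (25.9%) above. Among genes of at least log2 6, 33.6% of the genes that had risen were above DMSO at 48 h and 30.4% below, where 27.6% and 28.3% of all genes at that level were. Of those that had fallen, 37.8% were below DMSO and 24.1% above. At 72 h, 351 of the genes that had risen were above DMSO and 290 below (34.8% and 28.7%, with 17% and 16.5% of all genes, 33.4% together), and 310 of those that had fallen were below and 309 above. Among genes of at least log2 6 at 72 h, 168 of those that had risen were above DMSO and 203 below, and 172 of those that had fallen were above and 224 below, where 29.1% of all genes at that level were above and 29.9% below. There more genes stood below DMSO than above it in both sets, with medians of -0.04 and -0.09. Across all genes the change from 12 to 24 h had a correlation of 0.08 with the difference from DMSO at 48 h and -0.01 with that at 72 h.

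From 48 to 72 h few genes still changed at 10 mM, and those that did had more often changed the other way than the same way before. In that interval 48 genes rose and 36 fell (0.254% and 0.19% of genes, 0.444% together). Of the 48, 19 had fallen from 12 to 24 h (39.6% of the 48 and 1.81% of the 1048) and 4 had risen. Of the 36, 11 had risen (30.6% of the 36 and 1.09% of the 1009) and 1 had fallen. ENSG00000104371 was among the 19. For all genes that had fallen from 12 to 24 h the median change from 48 to 72 h was 0.05, and for those that had risen it was -0.02, against -0.01 for all genes. The correlation between the early and the late change was -0.13 across all genes and -0.18 among those of at least log2 6. Without the arrays with weak spike-ins, 8 genes had fallen early and risen late and 1 had risen early and fallen late. Leaving out replicate 1 at 24 h, or replicate 1 at 12 h, made the second number 7.

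**Figure D5:**
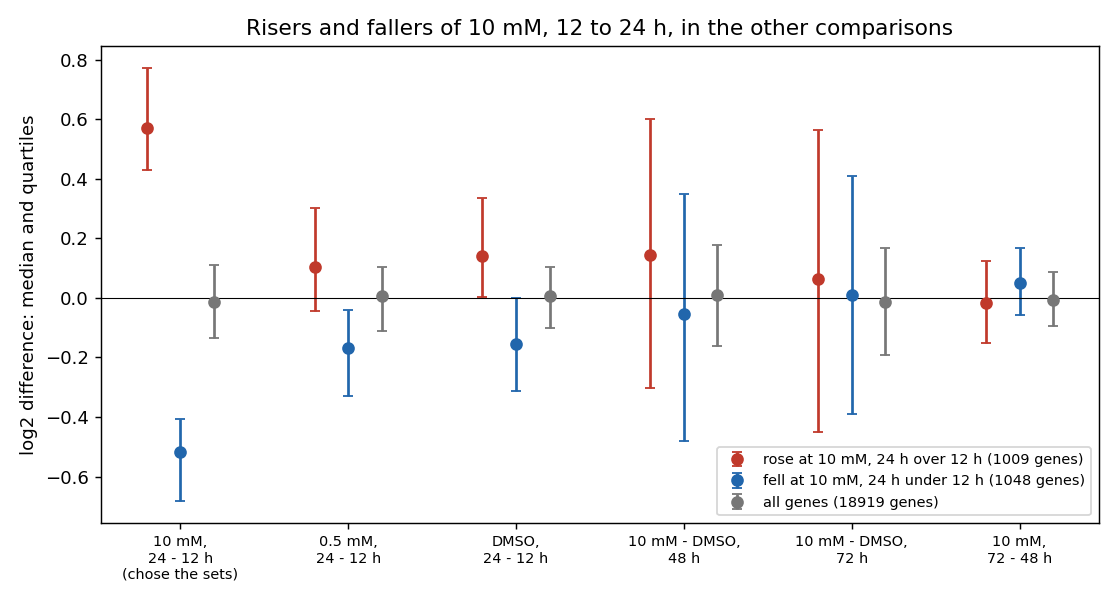
Medians (points) and quartiles (bars) of the log2 differences in 6 comparisons, for the 1009 genes that rose at 10 mM from 12 to 24 h (red), the 1048 that fell (blue) and all 18919 genes (grey). The first comparison chose the genes; in the low-dose and solvent cultures the medians were 0.11 and 0.14 for the genes that rose and -0.17 and -0.15 for those that fell, and at 72 h they were 0.06 and 0.01.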

How the data were processed

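The authors deposited log2 expression levels, made with RMA per the submitters' processing notes; its version, the probe set definition and the build were not given in the sources used. RMA makes the distributions of arrays alike, so a shift of most genes one way would not be seen. The table held 18919 gene rows and 62 control rows, and nothing was renormalized or filtered. All 36 arrays entered a single limma fit (version 3.58.1, R 4.3.3; lmFit, then eBayes) of 12 group means with 24 residual degrees of freedom, and p-values were adjusted over all genes by Benjamini-Hochberg with a threshold of 0.05. P-values measure the spread between these arrays, which may be technical, and the number of arrays limits the precision. Figures were drawn with matplotlib 3.10.9.

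The members, lists and tests were chosen with earlier results of these data known. The rule for named genes asked for a symbol; as the reference (59792 rows) held no Ensembl identifier, the 33 gene lists, the marker lists and promoter sequences were not used. In its place, the 2 largest rises and 2 largest falls are given among the 595 and 664 called genes without overlap of arrays and with the higher mean at least log2 6, a change made after the files were seen. On simulated arrays (18919 genes, 200 changed) the comparison of 24 with 12 h found 58.2% of genes given a log2 change of 0.5, 95.2% of those given 1 and 99.7% of those given 2, with 6.02% of calls false. For the difference from the DMSO change these were 23.3%, 84.5% and 98.2%, and 6.55%. The simulated share of changed genes was below the 10.9% called in the data, and noise was drawn independently for each array. The rates may therefore not carry over to the data.

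Same-numbered arrays at 24 and 12 h deviated together with r of 0.11, 0.19 and 0.01 at 10 mM; in DMSO r was 0.16, 0.24 and 0.24. Between 10 mM and DMSO r was 0.12, 0.35 and 0.17 at 24 h and 0.14, 0.13 and 0.08 at 12 h. Between 10 mM and 0.5 mM r was 0.043, 0.158 and 0.224 at 24 h and 0.145, 0.264 and 0.269 at 12 h. Numbers were read as pairing arrays where every r was over 0.1. That held in DMSO, between 10 mM and DMSO at 24 h, and between 10 mM and 0.5 mM at 12 h. The fit behind the reported values has no block, and fits with one are alternatives. Alternatives were a fit of the compared arrays alone, replicate blocks, a second quantile normalization, median centring, a filter at log2 5, a trended robust prior, array weights, a 1.5-fold minimum, and leaving out each array or those with dap rows under log2 7. Leaving out both arrays of a number was added later.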

Additional observations from a re-analysis of the deposited data

Results flagged for a closer look

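The change from 12 to 24 h at 10 mM APAP differed from the change in DMSO in 440 genes, and from the change at 0.5 mM APAP in 489 genes, by the test of the difference itself (limma, adjusted p under 0.05). Among the genes given by identifier, the 10 mM change minus the DMSO change was 3.41 for ENSG00000138166, -4.75 for ENSG00000104371 and -2.95 for ENSG00000128645, each past the threshold with n = 3 arrays per group. For ENSG00000112183 the same difference, 1.13, did not pass (limma, adjusted p = 0.08). These genes were chosen by their 10 mM change, which enters the difference, so the size of the difference is in part built in.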

How the results depend on the processing

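The changes of the 4 named genes, and their differences from DMSO, kept their sign under every alternative run. These genes were chosen for having no overlap between the 24 h and 12 h arrays at 10 mM. Leaving arrays out could therefore not turn the sign of their 10 mM changes. For all called genes, direction was compared gene by gene only without 24 h replicate 2 at 10 mM. Which direction was more frequent did turn: against the DMSO change, 236 positive and 204 negative became 145 and 150 without weak spike-ins, 137 and 144 without DMSO 24 h replicate 1, and 124 and 133 without the arrays numbered 1. Of the recomputed counts that answer a comparison, 159 stayed within 1.5 times and 69 did not; the cause was not tested unless stated. With array weights, 3253 genes changed at 10 mM (1757 lower) and 1602 in DMSO, and the 10 mM change differed from the DMSO change in 1202 (614 positive, 588 negative) and from the 0.5 mM change in 972. With a minimum of 1.5-fold, which drops small changes by construction, 877 changed at 10 mM (477 higher, 400 lower), 369 in DMSO and 305 at 0.5 mM, and 10 mM differed from DMSO in 3042 at 24 h and 2687 at 12 h. Without arrays with weak spike-ins, 1308 changed (618 higher, 690 lower), and 145 genes had a more positive change than in DMSO. A replicate block within each time gave 750 genes (386 positive, 364 negative) against DMSO and 833 against 0.5 mM. Every 10 mM array correlated best with the DMSO array of its own number, at 24 and at 12 h. With 0.5 mM this held at 12 h, but not for replicate 1 at 24 h. The reported counts come from the fit without a block, which leaves such pairing out. A replicate block within each treatment gave 2124 at 10 mM; arrays there shared a number and 2 of 3 correlated best with their own.

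Leaving out single arrays gave 1388 to 1819 genes at 10 mM (692 to 927 higher, 674 to 892 lower), 330 to 610 in DMSO and 219 to 616 at 0.5 mM. It gave 260 to 390 against the DMSO change (137 to 216 positive, 115 to 180 negative) and 260 to 453 against the 0.5 mM change. Leaving out both arrays of a number at 10 mM, chosen after seeing the data, left 2 arrays per time. Without those numbered 1 it gave 1193 genes (604 higher, 589 lower), 257 against DMSO (124, 133) and 270 against 0.5 mM. Without those numbered 2 it gave 987 (536, 451), 188 (98, 90) and 196. Without those numbered 3 it gave 1283 (605 lower), 289 (116 negative) and 317.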

Other observations

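At 10 mM APAP 5.33% of all genes rose and 5.54% fell from 12 to 24 h. Seen from the solvent side, 361 genes rose in DMSO from 12 to 24 h, and 149 of them (41.3%) also rose at 10 mM APAP while 7 fell there. Their median change was 0.32 at 10 mM and 0.58 in DMSO, where it chose them. Of the 380 genes that fell in DMSO, 129 (33.9%) also fell at 10 mM and 8 rose, with medians of -0.31 at 10 mM and -0.59 in DMSO. Of the 248 genes that rose at 0.5 mM, 112 (45.2%) rose at 10 mM, and of the 407 that fell, 126 (31%) fell at 10 mM.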
